A study of Homo sapiens with 10 samples.

Results

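RNA crosslinked to FLAG-tagged eIF4A in vehicle-treated cells was set against the RNA of an input library. Of the series' 10 libraries, 4 enter: the 3 anti-FLAG libraries of cells given DMSO, numbered 1 to 3, and the only input library, which bears the number 2 and was made with no antibody. All come from HEK 293T cells, an established line of human embryonic kidney origin, with FLAG-tagged eIF4A. DMSO was given for 1 h before ultraviolet crosslinking (254 nm, 400 mJ/cm2), while the labels of the input name no vehicle or compound. They also do not say which eIF4A paralogue carries the tag, how it is expressed, whether the line is a clone, or whether the numbers mark separate cultures. The SDs below therefore measure the spread between libraries, which may be technical.

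Every gene symbol and transcript class of the files was used. A symbol in 1 class (5' leader, coding sequence or CDS, 3'UTR, ncRNA, other transcript, pseudogene or LINC, the long intergenic non-coding RNAs) is called a feature here. Of 276304 features listed, 60593 had at least 1 count in these 4 libraries. With 1 input library there is no test: each DMSO library was compared with the same input, whose own spread is unknown, so ratios to it are descriptions and share any error of that library.

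eIF4A is an RNA helicase of the DEAD-box family. With the cap-binding protein eIF4E and the scaffold eIF4G it forms eIF4F, which loads on the capped 5' end of an mRNA, and with eIF4B or eIF4H it opens leader structure so that the small ribosomal subunit can land and scan to the start codon. Enhanced crosslinking and immunoprecipitation (eCLIP) recovers fragments that ultraviolet light has joined to a protein, and an input library shows which fragments the lysate gave without the antibody.

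The input held 2193699 counts and the DMSO libraries 1071262, 1074588 and 943310, so that 1 count equals 0.456 CPM (the count scaled to a common library total of 1e6) in the input and 0.931 to 1.06 CPM in DMSO. Counts were more concentrated in the input, where 10 features held 25.7% of all counts, than in DMSO, where 10 held 8.43% to 13.2%. In DMSO library 2, 39383 features had a count, fewer than in libraries 1 (46898) and 3 (49325). Over the features kept below, log2 CPM correlated between DMSO libraries at r = 0.71 to 0.82 and between DMSO and input at 0.40 to 0.50, across features and as a description. Of 10 genes expected in HEK 293T, 8 reached 10 CPM in the input and none lay at or under a floor of 3 counts. Among 20 genes that mark blood, liver, epithelium, muscle or fibroblasts, 12 lay at or under it, and PTPRC, HBB, TTR and DES had 0 input counts. COL1A1, with 143 input counts, and ESR1, with 63, were the most abundant of these, and the 20 summed to 143 CPM in the input and 79.3 to 139 CPM in DMSO.

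The first comparison was of transcript classes, which shows where on RNA the bound fragments lay. Leaders took 7.57% of the input counts and 23.4%, 24.1% and 20.7% of the counts in DMSO libraries 1, 2 and 3. All 3 lay above the input by more than the spread between them, the mean being 22.7% ± 1.80 (SD, n = 3) and the difference 15.2 percentage points. The class of non-coding RNA went the other way, from 39.5% of the input to 13.3%, 17.3% and 17.1%. CDS shares were 31.2% in the input and 35.7%, 31.4% and 31.7% in DMSO, a mean difference of 1.71 points that is smaller than the SD of 2.38. For 3'UTRs the input gave 19.7% and DMSO 25.1%, 24.7% and 27.4%. The exact (Clopper-Pearson) 95% interval of the input's leader share, 7.53% to 7.60%, covers counting error only.

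**Figure D1:**
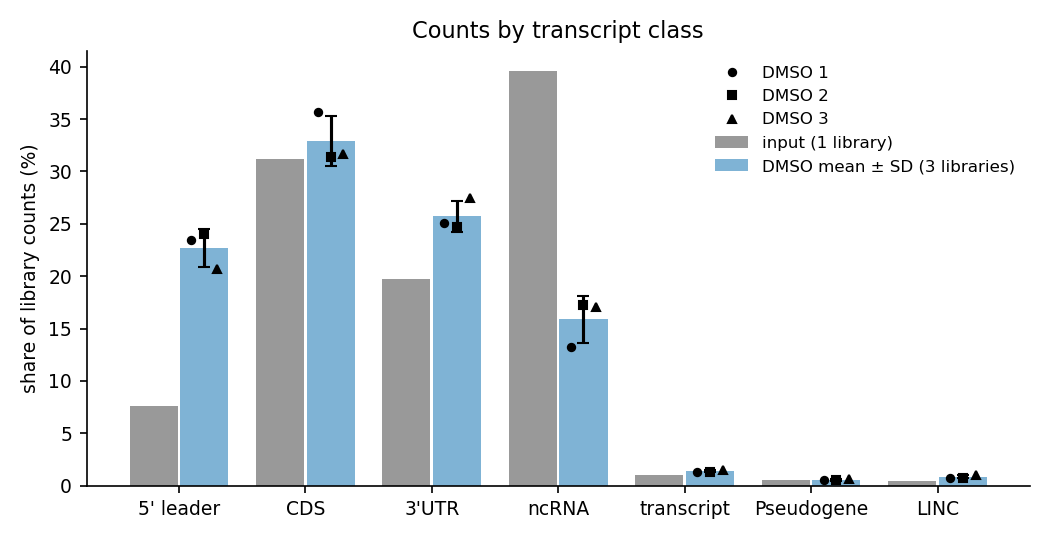
Share of each library's counts (%) in the 7 transcript classes. Grey bars are the input, blue bars the DMSO mean with its SD (n = 3) and symbols the DMSO libraries, all above 20% for leaders against 7.57% in the input.

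Shares are relative, so a high share in 1 class lowers the others. Counted among leaders, CDS and 3'UTRs alone, leaders took 12.9% of the input and 27.9% ± 2.07 of DMSO, CDS were below the input (40.4% ± 1.71 against 53.4%), and 3'UTRs were at 31.6% ± 2.41 against 33.7%. The higher 3'UTR share of all counts was therefore not seen within mRNA. A large part of it sat in a single feature, the 3'UTR of HINT3, with 268 CPM in the input and 26406, 54278 and 40068 CPM in DMSO libraries 1, 2 and 3. This 3'UTR, as annotated in GENCODE release 29, overlaps RNA5SP216 of the RefSeq table, a pseudogene of 5S ribosomal RNA, and which of the overlapping genes gave the reads cannot be told apart. Without all features that overlap a gene of a transfer RNA, small nuclear RNA, 5S, 7SK, 7SL or similar RNA, 3'UTRs took 20.1% of the input and 22.8% ± 2.06 of DMSO, and the LINC class 0.402% and 0.445% ± 0.04 (from 0.411% and 0.850% ± 0.14 with them). Leaders then took 7.13% and 23.7% ± 1.96.

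For single features, counts were turned into log2 ratios of CPM, DMSO to input, with a prior count of 2. A feature was kept where the average of its mean DMSO CPM and its input CPM was at least 20, which held for 10075 features (1842 leaders, 4327 CDS, 3083 3'UTRs, 618 ncRNAs, 111 other transcripts, 60 pseudogenes and 34 LINC RNAs). A feature is said to be above (below) input where each of the 3 DMSO libraries was at least 2-fold higher (lower). By this rule 1566 features were above (15.5% of those kept) and 142 below (1.41%), and 1238 of the 1566 were leaders. Leaders thus made up most of the features above input.

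Leaders met the upper rule in 67.2% of cases, and 4 of 1842 were below (0.217%). Among CDS, 241 of 4327 were above (5.57%) and 31 below (0.716%). Among 3'UTRs, 31 of 3083 were above (1.01%) and 7 below (0.227%). Among ncRNAs, 39 of 618 were above (6.31%) and 97 below (15.7%). The median log2 ratio was 1.98 ± 0.12 for leaders, 0.02 ± 0.11 for CDS, 0.07 ± 0.15 for 3'UTRs and -0.06 ± 0.10 for ncRNAs (mean ± SD of the 3 library medians). Leaders therefore stood apart from both other mRNA parts in every DMSO library, with library medians of 1.85 to 2.06.

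**Figure D2:**
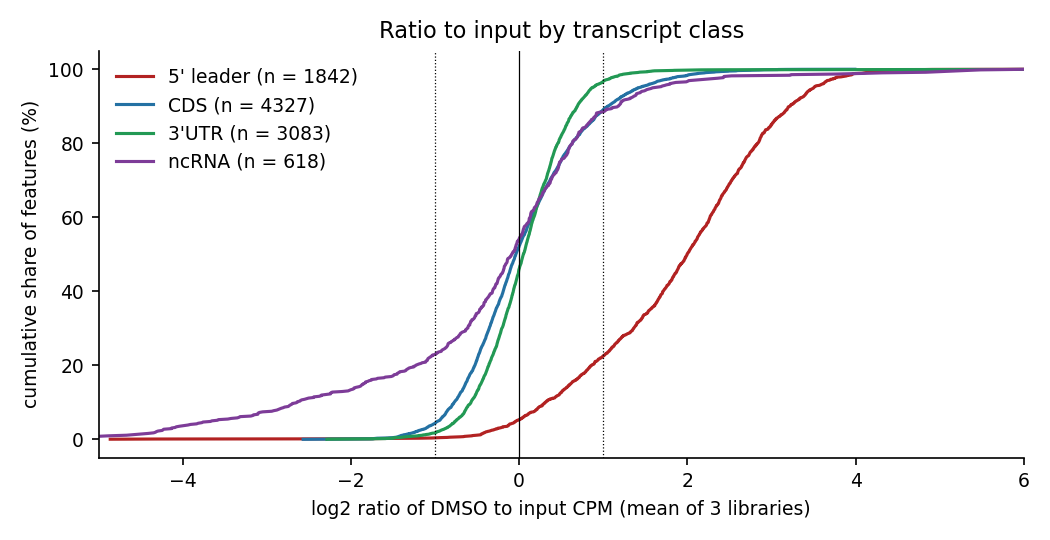
Cumulative share of features (%) against the log2 ratio of DMSO to input CPM (mean of 3 libraries) for leaders, CDS, 3'UTRs and ncRNAs. Dotted lines mark 2-fold, and the leader curve lies to the right of the others with a median near 2, while the ncRNA curve has the longest lower tail.

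The size of the leader value depends on how features are kept, since a leader with a low input passes only through its DMSO counts. Where only leaders with an input of at least 20 CPM were kept, 617 remained, their median was 0.80 ± 0.02, and 204 were above input. A choice that does not look at the leader gave a value in between. For the 4129 genes whose CDS reached 20 CPM in the input, the leaders summed to 37414 CPM in the input and 135285, 133390 and 117236 CPM in DMSO, a 3.44-fold difference. In 3992 of these genes the leader had a count, the median was 1.41 ± 0.10, and 70.1% were above the input in all 3 libraries. The 3'UTRs of the same genes differed 1.14-fold.

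Scaling changes the values as well. Ratios over all features had a median of 0.21, and edgeR's TMM factors, DESeq2's size factors and totals of the mRNA classes alone lowered them by 0.47, 0.37 and 0.45. Of all features past 2-fold, 91.7% lay above input with library totals and 66.4% to 74.4% with the other scalings. CDS below input then numbered 197 to 345 and those above 99 to 128, so the balance of CDS above and below flips with the scaling, and so does the sign of the CDS, 3'UTR and all-feature medians. Any single ratio given below as positive but under 0.37 turns negative with each of them. Leaders stayed the class furthest above, with medians of 1.42 to 1.57 and 956 to 1275 above input.

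A comparison inside genes hardly depends on the scaling, with medians of 1.95 to 2.03 under the other scalings, but it does depend on the filter. In 1240 genes whose leader and CDS both passed the filter, the leader's log2 ratio exceeded that of the CDS by a median of 2.02 ± 0.18 (library medians 1.89 to 2.22). With an input of at least 20 CPM required of both parts the median was 1.39 ± 0.09, and with no filter 1.05 ± 0.04. The leader lay higher in all 3 libraries in 1122 of the 1240 genes (90.5%) and lower in all 3 in 11. Between 3'UTR and CDS the median difference was 0.13 ± 0.14 over 1712 genes, no larger than its spread. Across genes, the leader and CDS ratios correlated at r = 0.39 (n = 1240) and those of CDS and 3'UTR at r = 0.23 (n = 1712). These correlations are descriptions, since both parts share libraries and the same input.

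Values of the leaders with the highest ratios are given next. Ranked on the lowest of the 3 library ratios, as for the other classes below, the 10 highest were PLCG2, CDK2AP1, EI24, TMED2, NACC1, OR1F1, PPP1R14B, ATP6V0B, TEX261 and FAM50A. The PPP1R14B leader, of a phosphatase inhibitor, had 13.2 CPM in the input and 271, 321 and 237 CPM in DMSO libraries 1, 2 and 3, a log2 ratio of 4.23 ± 0.22. For EI24, a membrane protein of the endoplasmic reticulum, the leader had 5.01 CPM in the input and 167, 125 and 141 CPM in DMSO libraries 1, 2 and 3 (4.47 ± 0.21). RNU6-1156P, a small nuclear RNA pseudogene, lies within 500 bases of the EI24 leader. The leader of TMED2, a cargo receptor of vesicles between the endoplasmic reticulum and Golgi, had 2.28 CPM in the input against 131, 114 and 68.9 CPM (4.75 ± 0.48). In CDK2AP1, which encodes a partner of the cell-cycle kinase CDK2, the leader stood at 2.28 against 96.1, 80 and 97.5 CPM (4.61 ± 0.16), and in ATP6V0B, a subunit of the vacuolar proton pump, at 2.28 against 72.8, 84.7 and 58.3 CPM (4.26 ± 0.27). These 5 leaders were picked for high ratios in every DMSO library, so their lying above the input follows from the choice. Of all leaders kept, 87.4% lay above the input, by any amount, in all 3 libraries.

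Several of the highest leaders had 3 or fewer input counts, so their ratios have wide intervals. NACC1, a transcriptional regulator, had 3 input counts and a ratio of pooled DMSO to input CPM of 41.2 (95% counting interval 13.9 to 202). TEX261 had 2 and a ratio of 49.4 (95% counting interval 13.4 to 412). FAM50A had 1 and a ratio of 107 (95% counting interval 19 to 4263), and the PLCG2 leader, of a phospholipase of immune receptor signalling, had 1 with a ratio of 367 (95% counting interval 65.6 to 14529). The intervals cover counting error only. OR1F1, an olfactory receptor gene, had 26.0 CPM in the input and 455, 1704 and 724 CPM in DMSO libraries 1, 2 and 3, with library 2 the highest, and the transfer RNA gene TRP-TGG3-5 overlaps the window from 250 bases before to 50 after its RefSeq start.

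The first 30 transcribed bases of those leaders with a single start in the RefSeq table (GRCh38.p14) are shown to let the highest and the lowest be compared, 5' to 3', with each CGGCGG in capitals. They lie at chr16:81739041-81739070 (PLCG2, plus strand), chr11:125569477-125569506 (EI24, plus), chr12:123584552-123584581 (TMED2, plus), chr19:13118264-13118293 (NACC1, plus), chr11:64246914-64246943 (PPP1R14B, minus), chr1:43974960-43974989 (ATP6V0B, plus), chr2:70994844-70994873 (TEX261, minus), chr14:20343635-20343664 (PARP2, plus) and chr4:112297369-112297398 (ALPK1, plus).
PLCG2: aagcgtgaactagagagtgctgtgcaggag
EI24: agtgcgggcgcagcggccccggccctggaa
TMED2: gagaaggcagcggggCGGCGGCGGCGGCGG
NACC1: gctcggctggggcggcctggcccacaatga
PPP1R14B: gagacagagaaagcgcttCGGCGGctgcag
ATP6V0B: agactgcgggacggacggtggacgctggga
TEX261: ctgtcgtccgcggggcggggacgCGGCGGc
PARP2: gaattccatggcggcgCGGCGGcgacggag
ALPK1: gtttatgagaaacagtgtgtttcagagagg
The first 7 belong to leaders high over input and the last 2, PARP2 and ALPK1, to the lowest. CGGCGG occurs in 3 of the 7 and in 1 of the 2, and PLCG2, the highest of all, holds none.

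Over all leaders with a RefSeq start (1520 of 1842, of which 551 have several starts and were read at the first listed), the first 50 bases held CGGCGG in 18.6% of those above input and in 15.2% of the others. Over all 27305 RefSeq starts the share was 6.78%, but their median GC content was 60%, against 70% for leaders above input and 68% for the others. The part of GC content in these shares was not tested. GGGG was found in 28.5% and 28.9% (22.6% of all starts). Both motifs were searched on the transcribed strand only. A C followed by 4 pyrimidines (C or T) from the first base, the opening of a 5' terminal oligopyrimidine (TOP) tract that marks mRNAs of the translation machinery, was present in 11% of leaders above input, in 4.25% of the others and in 4.04% of all starts. A match is a description of letters, not of a binding site.

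Few leaders lay below input, and 3 of the 4 have a small-RNA gene at or beside them. SIRT4, a mitochondrial sirtuin, had 1162 CPM in the input and 47.6, 58.6 and 20.1 CPM in DMSO libraries 1, 2 and 3 in its leader (-4.86 ± 0.78), and RNU4-2, a U4 spliceosomal RNA gene, lies within 500 bases. PARP2, a poly(ADP-ribose) polymerase of DNA repair, had 1551 CPM in the input and 67.2, 80 and 82.7 CPM in DMSO libraries 1, 2 and 3 (-4.32 ± 0.16), and RPPH1, the RNA of ribonuclease P, lies within 500 bases of its leader and overlaps the same window around its start. RPPH1 itself is listed at 0 counts in all 4 libraries. The leader of WDR74, a ribosome assembly factor, had 5927 CPM in the input and 2235, 2678 and 1417 CPM in DMSO libraries 1, 2 and 3 (-1.54 ± 0.47) and overlaps RNU2-2, a U2 RNA gene. RASGRP3, an activator of Ras proteins, had 37.4 CPM against 12.1, 7.44 and 10.6 CPM (-1.77 ± 0.31), with no such gene found there.

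GC content and leader ratio went together. Leader regions were taken from GENCODE release 29 for 97.0% of the leaders kept. The median log2 ratio was 1.02 ± 0.09 for 34 leaders under 40% GC, 1.35 ± 0.10 between 50% and 55%, 1.78 ± 0.16 between 60% and 65%, and 2.35 ± 0.12 for 540 leaders at 75% and over. Spearman's rho across leaders was 0.29, and 0.21, 0.28 and 0.36 in DMSO libraries 1, 2 and 3. For the leaders of genes chosen by their CDS the medians were 0.94 ± 0.12 under 40%, lowest between 40% and 45% (0.77 ± 0.15), and 1.76 ± 0.08 at 75% and over. The gap between transcript parts was present at equal GC content, since at 60% to 65% GC the medians were 1.78 ± 0.16 for leaders, 0.10 ± 0.03 for CDS and 0.37 ± 0.18 for 3'UTRs. Leader length showed little order under the main filter, with medians of 1.76 ± 0.15 under 100 bases, 2.28 ± 0.23 from 100 to 200 and 1.85 ± 0.07 at 400 and over. With an input of at least 20 CPM the same 3 groups had 0.35 ± 0.13, 0.66 ± 0.06 and 1.00 ± 0.08. For genes chosen by their CDS they had 1.16 ± 0.12, 1.49 ± 0.15 and 1.47 ± 0.05. The shortest leaders were thus the lowest group in each case.

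CDS ratios followed the length of the reading frame. The median was 0.86 ± 0.25 for 210 CDS under 500 bases, 0.76 ± 0.18 from 500 to 1000, 0.21 ± 0.12 from 1000 to 2000, -0.20 ± 0.11 from 2000 to 4000 and -0.46 ± 0.12 for 683 CDS of 4000 bases and over. Of the shortest group 25.7% were above input, and of the longest 0. Spearman's rho with length was -0.58 across 4308 CDS, and -0.55, -0.50 and -0.48 in DMSO libraries 1, 2 and 3. The same order held within bands of GC content, for example from 1.18 ± 0.18 under 500 bases to -0.15 ± 0.13 at 2000 and over among CDS of 60% to 70% GC. Where only CDS with an input of at least 20 CPM were kept, the medians still ran from 0.58 ± 0.25 to -0.48 ± 0.12. For the same CDS another scaling moves all groups by nearly the same shift, given above, so the signs change and the order does not. GC content of the CDS was less even between libraries, with rho of 0.01, 0.28 and 0.33. For 3'UTRs the medians stayed between -0.07 and 0.23 over all lengths.

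**Figure D3:**
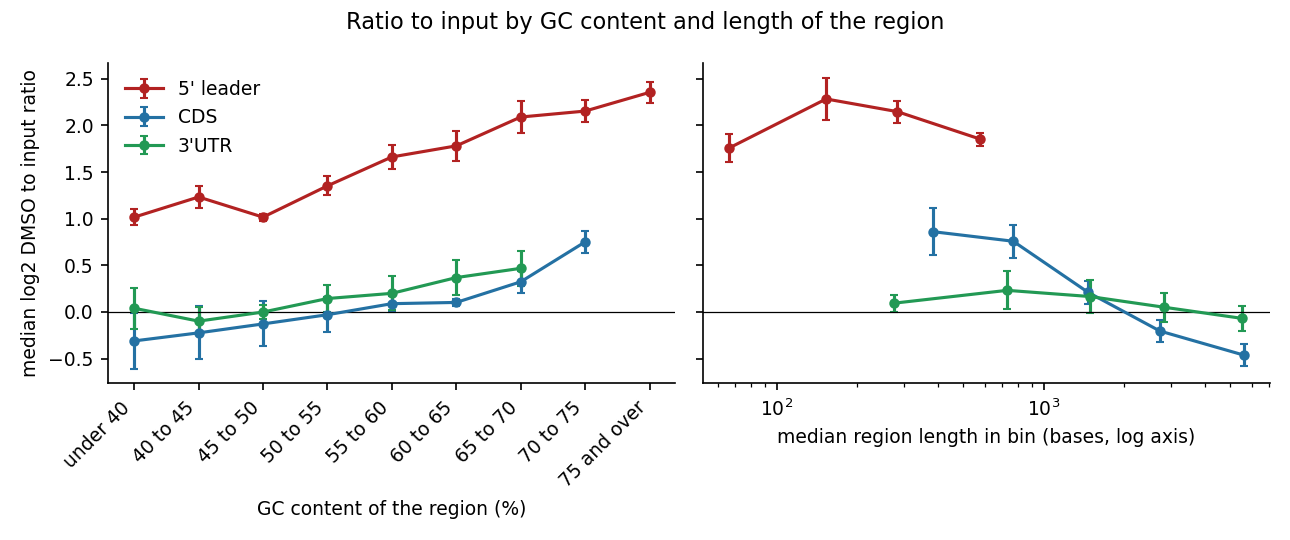
Median log2 ratio of DMSO to input for leaders, CDS and 3'UTRs by GC content of the region (left, %) and by region length (right, bases, log axis). Points are means and bars SDs of the 3 library medians (bins of at least 20 features), with leaders above the other parts at every GC content and CDS medians going from 0.86 to -0.46 with length.

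The CDS highest over input were TMEM260, GLRX5, C19orf24, ZNF493, KRT10, CTXN1, COPRS, TXNDC5, PDF and NENF. GLRX5, a mitochondrial glutaredoxin of iron-sulfur cluster assembly, had 14.1 CPM in the input and 185, 157 and 141 CPM in DMSO libraries 1, 2 and 3 (3.37 ± 0.19). The CDS of TXNDC5, a disulfide isomerase of the endoplasmic reticulum, had 18.7 against 119, 182 and 139 CPM (2.85 ± 0.31), and that of PDF, the mitochondrial peptide deformylase, 7.29 against 56.9, 58.6 and 58.3 CPM (2.76 ± 0.02). TMEM260 stood at 3.19 against 70.9, 59.6 and 93.3 CPM (3.99 ± 0.32) and NENF, the secreted protein neudesin, at 15.0 against 93.3, 130.3 and 94.3 CPM (2.68 ± 0.27). These CDS too were picked for high ratios in every DMSO library, so the gap to the input follows from the choice. Each of those named had an input under 20 CPM and passed the filter only through its DMSO counts. Where only CDS with an input of at least 20 CPM were kept, 88 of 4129 were above input. Of all CDS kept, 29.1% lay above the input, by any amount, in all 3 libraries.

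Below input were, among others, some long reading frames. The CDS of GOLGB1, the Golgi tether giantin, had 161 CPM in the input and 51.3, 50.3 and 42.4 CPM in DMSO libraries 1, 2 and 3 (-1.72 ± 0.15), and that of AKAP12, a kinase-anchoring scaffold, 152 against 46.7, 49.3 and 38.2 CPM (-1.74 ± 0.19). RSRC2 (-2.57 ± 1.34) and ZDBF2 (-2.41 ± 1.32) had lower means, but in DMSO library 2 each had 1.86 CPM, which is under the floor of 3 counts. PCIF1, which methylates the adenosine next to the cap, had a CDS ratio of -1.96 ± 0.66, and ST5 one of -1.33 ± 0.0041.

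Within single genes the gap between leader and CDS was largest for FAM50A, EI24, PTPRU, EEF1G, NACC1, IDS, MAP4K4 and MYH10. EEF1G, a subunit of the elongation factor that recharges eEF1A, had 1.82 CPM in the input and 78.4, 61.4 and 24.4 CPM in DMSO libraries 1, 2 and 3 in its leader. Its CDS had 860.2 CPM in the input and 692, 701 and 417 CPM in DMSO, so the leader was higher than the input and the CDS lower, a difference of 4.48 ± 0.45. For MYH10, a non-muscle myosin heavy chain, the leader had 2.28 against 44.8, 51.2 and 25.4 CPM and the CDS 153 against 84.9, 87.5 and 80.6 CPM (difference 4.26 ± 0.46). Genes at the other end were PARP2 (-4.13 ± 0.99), GUK1 (-1.50 ± 0.82), YJEFN3 (-1.03 ± 0.16) and NOXO1 (-0.90 ± 0.16). In GUK1, guanylate kinase, the leader had 34.2 against 56.0, 27.9 and 47.7 CPM and the CDS 31.5 against 96.1, 145 and 102 CPM, so here the CDS was the part above input.

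Genes of eIF4F and its cofactors came first among the gene lists, which were matched by symbol. List counts, and the shares of all leaders and all CDS beside them, rest on the average filter. Leaders and CDS with a low input pass it only through their DMSO counts. With an input of at least 20 CPM, 204 of 617 leaders and 88 of 4129 CDS were above. Lists were not counted under that filter. Of 19 symbols, 7 leaders passed the filter and 4 of them were above input (median 1.39 ± 0.03), against 67.2% and 1.98 ± 0.12 for all leaders. With the other scalings 1 of 7 (TMM), 3 of 7 (DESeq2) and 2 of 8 (mRNA totals) were above. Of all leaders, 956 of 1854, 1015 of 1845 and 1275 of 2626 then were. With library totals the 4 were EIF4G2 (2.17 ± 0.54), a relative of the scaffold that lacks the part binding eIF4E, EIF4EBP2 (1.78 ± 0.44), a repressor that sequesters eIF4E, EIF4G1 (1.65 ± 0.34), the main scaffold, and PABPC1 (1.56 ± 0.12), the poly(A)-binding protein. The EIF4G1 leader had 46.5 CPM in the input and 194, 122 and 139.9 CPM in DMSO libraries 1, 2 and 3, while its CDS had 401 against 498, 308 and 428 CPM (0.01 ± 0.35). PABPC1 showed the same split, with 115 against 358, 360.1 and 309.5 CPM in the leader and 137 against 74.7, 107 and 91.2 CPM in the CDS (-0.60 ± 0.26). The leaders of PAIP2 (0.98 ± 0.19), the helicase DDX3X (0.90 ± 0.24) and EIF4G3 (0.71 ± 0.20) did not reach 2-fold in every library.

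Of 11 CDS of this list, EIF4EBP1, another repressor of eIF4E, was the only one above input (15.5 against 59.7, 37.2 and 38.2 CPM, 1.42 ± 0.37), and with each of the other scalings none was. Of all CDS 5.57% were above with library totals. EIF4B, the cofactor that stimulates the helicase, had the lowest CDS ratio (195 against 120.4, 101 and 111 CPM, -0.80 ± 0.12), and its 3'UTR the highest of 9 (95.7 against 152, 157 and 173 CPM, 0.74 ± 0.09). None of the 9 3'UTRs was above or below input. EIF4A2 had 59.3 against 50.4, 52.1 and 32.9 CPM in its CDS (-0.41 ± 0.36). EIF4A1 is listed at 0 in every class of all 4 libraries, as are RNU1-1, RNU6-1, RN7SL1 and the ribosomal RNA symbols RNA18S5 and RNA5S1. Since cells use all of these, a listed 0 is no measure of the RNA.

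Other initiation, elongation and release factors had 10 of 13 leaders above input (median 2.16 ± 0.23, against 67.2% above among all leaders) and 0 of 27 CDS (-0.13 ± 0.27, against 5.57% of all CDS). EIF5A, the hypusinated factor that helps ribosomes through stalls, had 50.6 CPM in the input and 599, 405 and 472 CPM in DMSO libraries 1, 2 and 3 in its leader (3.22 ± 0.28). The CDS of EEF1A1, which delivers transfer RNAs to the ribosome, had 1235 against 987, 859.9 and 789.8 CPM (-0.50 ± 0.16), and that of EEF2, the translocase, 1928 against 1368, 1467 and 1335 CPM (-0.47 ± 0.07). Both CDS lay below input in every DMSO library, by less than 2-fold.

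Leaders of the ribosomal proteins were mostly above input, where 67.2% of all leaders were, with large subunit proteins of the ribosome at 27 of 31 (median 2.49 ± 0.44) and small subunit proteins at 23 of 27 (2.57 ± 0.55). The RPL5 leader had 36.9 CPM in the input and 449.9, 353 and 348 CPM in DMSO libraries 1, 2 and 3 (3.31 ± 0.21) and that of RPS23 8.21 against 133, 96.8 and 56.2 CPM (3.23 ± 0.62). All leaders of these lists, kept or not, summed to 4.39-fold (large subunit) and 5.89-fold (small subunit) the input, against 3.0-fold for all leaders. None of their 41 and 30 CDS was above input, against 5.57% of all CDS and 25.7% of those under 500 bases. Their medians were 0.18 ± 0.26 and 0.17 ± 0.33, which turn negative with the other scalings. The CDS of RPS2, for example, had 2441 CPM in the input and 2414, 2529 and 2321 CPM in DMSO libraries 1, 2 and 3 (-0.01 ± 0.06), values that overlap. Many of these genes have processed pseudogenes, between which aligned reads may be split.

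The CDS of 2 mitochondrial lists are given next. Of 52 CDS of nuclear-encoded respiratory chain subunits, 25 were above input (median 1.37 ± 0.33), as were 11 of 30 mitochondrial ribosomal proteins (1.07 ± 0.26), against 5.57% of all CDS and 25.7% and 20.2% of those under 500 and from 500 to 1000 bases. With the other scalings these medians were 0.78 to 0.90 and 0.53 to 0.70, and 11 to 14 and 2 to 5 CDS were above. Of all CDS, 99 of 4678 (TMM), 119 of 4606 (DESeq2) and 128 of 5883 (mRNA totals) then were. Median reading frames were 505.5 bases (respiratory chain) and 760.5 (mitochondrial ribosome), 471 and 445.5 for the large and small subunits of the cytosolic ribosome, and 1938 for all CDS. The part of length in these counts was not tested. They rest on the average filter, which CDS with a low input pass only through their DMSO counts. With an input of at least 20 CPM, 88 of 4129 CDS were above, and these lists were not counted under that filter. The leaders of both mitochondrial lists were high too, with 13 of 14 and 6 of 7 above input, against 67.2% of all leaders. ATP5D, a subunit of the ATP synthase, had 6.38 against 55.1, 65.1 and 55.1 CPM in its leader (2.92 ± 0.14), and MRPS5 1.82 against 54.1, 43.7 and 23.3 CPM (3.57 ± 0.60).

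Other lists are read against the 67.2% of all leaders that were above input. Secretory pathway and endoplasmic reticulum genes had 12 of 12 leaders above input (median 2.74 ± 0.67), glycolysis 7 of 7 (2.43 ± 0.54), chaperones 16 of 17 (2.42 ± 0.46), the proteasome 9 of 10 (2.56 ± 0.13), and tubulins, actins and their partners 12 of 14 (2.52 ± 0.46). CANX, the lectin chaperone calnexin, had 23.7 CPM in the input and 295, 354 and 201 CPM in DMSO libraries 1, 2 and 3 in its leader (3.46 ± 0.41), and PFN1, profilin, 29.2 against 344, 356 and 253 CPM (3.36 ± 0.27). Of 28 leaders of hnRNP and SR proteins, which package and splice RNA, 20 were above, near the share of all leaders, with HNRNPAB the highest (28.3 against 401, 435 and 347 CPM, 3.73 ± 0.16). Histones had 8 of 9 leaders above (2.92 ± 0.63) and 5 of 29 CDS (2 with each of the other scalings), with 1 CDS below, that of the linker histone H1F0 (-1.25 ± 0.17). Of all CDS 5.57% were above and 0.716% below. Of CDS under 500 bases 25.7% were above, and the median histone CDS had 390 bases. The part of length was not tested.

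Oncogene and cell-cycle mRNAs whose translation eIF4A inhibitors are known to block had 10 of 11 leaders above input (median 2.53 ± 0.13, against 67.2% above among all leaders), among them CDK4 (4.10 against 113, 59.6 and 93.3 CPM, 3.96 ± 0.47) and ARF6 (15.0 against 173, 165 and 155 CPM, 3.32 ± 0.08). Polyamine synthesis had 3 of 4, with SRM, spermidine synthase, at 3.19 against 105, 62.3 and 61.5 CPM (4.0 ± 0.43) and ODC1, ornithine decarboxylase, at 16.0 against 268, 128 and 196 CPM (3.45 ± 0.53). Immediate early genes had 5 of 9 (1.46 ± 0.51), too few leaders to set them apart from all leaders. With the other scalings 4 of 9 (TMM), 4 of 9 (DESeq2) and 4 of 10 (mRNA totals) of them were above. Lower shares were found for ZNF zinc finger genes (9 of 34, median 0.81 ± 0.19) and DEAD and DEAH box helicases (2 of 6, 0.76 ± 0.41, DDX5 and DDX17). The mRNAs with upstream reading frames that act in stress had 0 of 4 (0.57 ± 0.14). With the other scalings the last 3 medians were 0.36 to 0.49, 0.29 to 0.53 and 0.19 to 0.55, and 0 or 1 of the helicases was above. The median of all leaders was then 1.42 to 1.57. All leaders of a list, kept or not, summed to 5.83-fold (oncogene list) and 6.66-fold (polyamine synthesis) the input, against 3.0-fold for all leaders. The sums were 2.70-fold (immediate early), 2.10-fold (ZNF), 2.54-fold (helicases) and 1.83-fold (upstream reading frames).

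**Figure D4:**
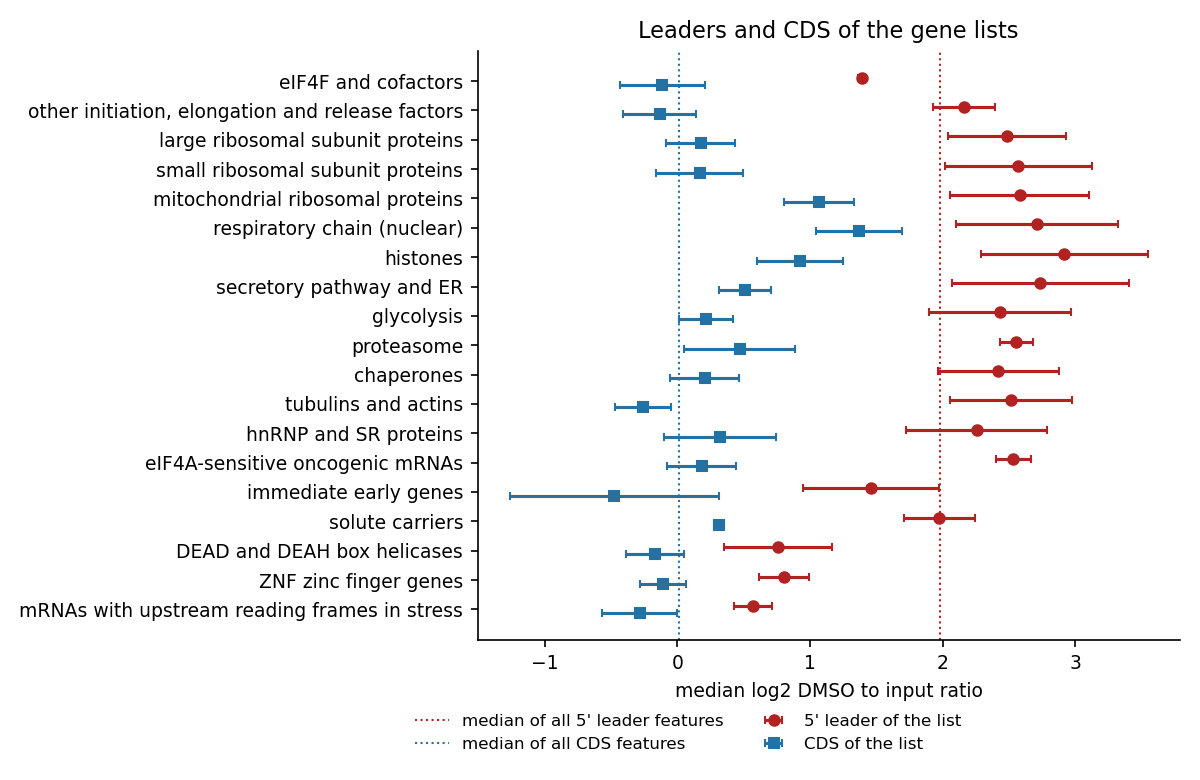
Median log2 ratio of DMSO to input for the leaders (circles) and CDS (squares) of 19 gene lists. Bars are SDs over the 3 libraries and dotted lines the medians of all leaders (1.98) and all CDS (0.02), with the leader above the CDS in every list shown.

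Among 3'UTRs, those highest over input were few and uneven. The MTRNR2L1 3'UTR, of a gene that resembles mitochondrial ribosomal RNA, had 1 input count and 534, 258 and 290.5 CPM in DMSO, and mitochondrial reads cannot be told apart from it. HIST1H3B, a replication histone whose mRNA ends in a stem-loop, had 1.82 CPM in the input and 47.6, 54.0 and 29.7 CPM in DMSO libraries 1, 2 and 3 (3.72 ± 0.44), the input value resting on 4 counts. SRSF5, a splicing factor, had 17.8 against 74.7, 75.4 and 66.8 CPM (1.93 ± 0.10), and RAC3, a small GTPase, 14.6 against 52.3, 61.4 and 89.0 CPM (2.07 ± 0.39). Lowest were ZNF713 (-2.06 ± 0.77), LOC102724488 (-1.76 ± 0.35), KIAA1143 (-1.50 ± 0.75), CBFA2T2 (-1.50 ± 0.33), EXPH5 (-1.46 ± 0.30) and SPAG9 (-1.34 ± 0.33).

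Small nuclear and nucleolar RNAs accounted for much of the counts that the input held and DMSO did not. RNU2-1, the U2 RNA of the spliceosome, had 134442 CPM in the input and 1791, 2669.9 and 1474 CPM in DMSO libraries 1, 2 and 3, 13.4% of the input library (-6.13 ± 0.44). RNU5B-1, a U5 RNA, had 2233 against 161, 196 and 173 CPM (-3.65 ± 0.15). Of 10 spliceosomal RNAs kept, 5 were below input and 1 above, against 15.7% and 6.31% of all ncRNAs kept. The sum over the list went from 150868 CPM to 9033 ± 1938. The exception was RNU4ATAC, the U4atac RNA of the minor spliceosome, with 139 CPM in the input and 2739, 1856 and 1369.7 CPM in DMSO libraries 1, 2 and 3 (3.76 ± 0.50). Its partner RNU6ATAC had 161 against 389, 254 and 536 CPM (1.21 ± 0.54) and RNU12, also of the minor spliceosome, 8909 against 3169, 4467 and 2499 CPM (-1.44 ± 0.42). These minor spliceosomal RNAs thus lay on both sides of the input.

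The families of nucleolar guide RNAs differed. Box H/ACA RNAs, which guide pseudouridylation, and Cajal body RNAs had 74 of 112 below input and 2 above (median -2.28 ± 0.60), while box C/D RNAs, which guide 2'-O-methylation, had 4 of 130 below and 16 above (0.15 ± 0.34). Of all ncRNAs kept, which include these lists, 15.7% were below and 6.31% above. Summed over the list, H/ACA and Cajal body RNAs went from 77675 CPM to 13889, 24716 and 12587 CPM, and box C/D RNAs from 18801 CPM to 15587, 26165 and 16900.1 CPM. With the other scalings the C/D median turned negative (-0.34 to -0.23), with 8 or 9 above and 12 to 17 below, and the H/ACA median was -2.77 to -2.66. SNORA73B had 14188 CPM in the input and 392, 556 and 506 CPM in DMSO libraries 1, 2 and 3 (-4.88 ± 0.26), SNORA64 4511 against 81.2, 227 and 90.1 CPM (-5.23 ± 0.81) and SCARNA11 320.5 against 12.1, 21.4 and 9.54 CPM (-4.41 ± 0.54). The 2 above input with library totals (0 with TMM and mRNA totals, 1 with DESeq2) were SCARNA2 (582 against 1428, 1352 and 1669.7 CPM, 1.34 ± 0.16) and SCARNA16 (1.79 ± 0.38).

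Among box C/D RNAs, SNORD75 had 6.84 CPM in the input and 233, 437 and 246 CPM in DMSO libraries 1, 2 and 3 (5.14 ± 0.50). SNORD45B had 0 input counts and 101, 123 and 79.5 CPM, which against a floor of 3 input counts (1.37 CPM) was at least 73.9-fold higher. SNORD48, also with 0, had 32.7, 102 and 59.4 CPM, at least 47.4-fold higher. SNORD3A, the U3 RNA of pre-ribosomal RNA cleavage, was at the other end (64.3 against 0.933, 4.65 and 3.18 CPM, -3.99 ± 0.68). SNORD75, SNORD45B and SNORD48 lie in introns of host genes, and reads of the host pre-mRNA cannot be told apart from them.

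Other abundant non-coding RNAs took several positions. RMRP, the RNA of ribonuclease MRP, was the most abundant ncRNA in DMSO and had 22815 CPM in the input and 22955, 29093 and 57666 CPM in DMSO libraries 1, 2 and 3, so library 1 was within 1% of the input and library 3 stood apart (0.57 ± 0.69). RN7SK, which restrains transcription elongation, had 7101 against 3476, 2029.6 and 3306 CPM (-1.31 ± 0.43), and BCYRN1, a cytoplasmic RNA that resembles part of 7SL, 1314 against 250.2, 137 and 215 CPM (-2.75 ± 0.45). RN7SL3 was at 493 against 28.0, 28.8 and 23.3 CPM (-4.14 ± 0.16). VTRNA1-2, a vault RNA, was above with library totals only (125 against 389, 258 and 312 CPM, 1.32 ± 0.30), and no member of its list was with the other scalings. Of 7 nuclear long RNAs (median 0.18 ± 0.35), HOTAIRM1 was above input (1.63 ± 0.47), though none was with the other scalings. MALAT1 (-0.61 ± 0.62), NEAT1 (-0.92 ± 0.89) and KCNQ1OT1 (-0.58 ± 0.26) met neither rule. NORAD, which is cytoplasmic, had 133 against 276, 263 and 237 CPM (0.95 ± 0.11).

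The features with the lowest ratios of all were 2 loci with no gene name. LOC107987206 had 14325 CPM in the input and 17.7, 5.58 and 3.18 CPM in DMSO libraries 1, 2 and 3 (-10.70 ± 1.05), and LOC105378179, which overlaps RN7SL2, an RNA of the signal recognition particle, 8637 against 17.7, 15.8 and 3.18 CPM (-9.54 ± 1.13). A further such locus, LOC105371692, had 19601 against 766, 1165 and 724 CPM (-4.50 ± 0.37). All 3 were among the 10 most abundant features of the input.

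Several of the features highest over input outside mRNA lay on or beside genes of transfer RNAs or small nuclear RNAs, or their pseudogenes. LINC01783, which overlaps the U1 pseudogene RNU1-6P and the transfer RNA gene TRE-TTC4-1, had 94.8 CPM in the input and 3556, 2541 and 5126 CPM in DMSO libraries 1, 2 and 3 (5.22 ± 0.51). LINC00324, over 3 transfer RNA genes, had 16.4 against 154, 877 and 287 CPM (4.25 ± 1.27) and LOC105375101, also over 3, 4.56 against 107, 623 and 105 CPM (4.99 ± 1.47). In both, DMSO library 2 was the highest by far, as it was for OR1F1. KRT32, a keratin gene counted in the transcript class, had 14.1 CPM in the input and 1123, 1065 and 1124 CPM in DMSO libraries 1, 2 and 3, with the 3 DMSO libraries nearly equal (6.14 ± 0.04), and the U2 pseudogene RNU2-32P lies within 500 bases. Over all features kept, mRNA parts included, such a gene (small nucleolar RNAs left out) overlapped 12 of 1566 above input (0.766%), 3 of 142 below (2.11%) and 27 of 8367 others (0.323%). Among ncRNAs it overlapped 4 of 39 above (10.3%), 2 of 97 below (2.06%) and 7 of 482 others (1.45%). The counts above and in the others were 2 of 4 and 2 of 28 for LINC RNAs, 1 of 3 and 4 of 57 for pseudogenes, and 0 of 10 and 0 of 100 for other transcripts. Reads of overlapping genes cannot be told apart where strand and the counting rule are not given, and how many reads came from the small RNAs was not tested.

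**Figure D5:**
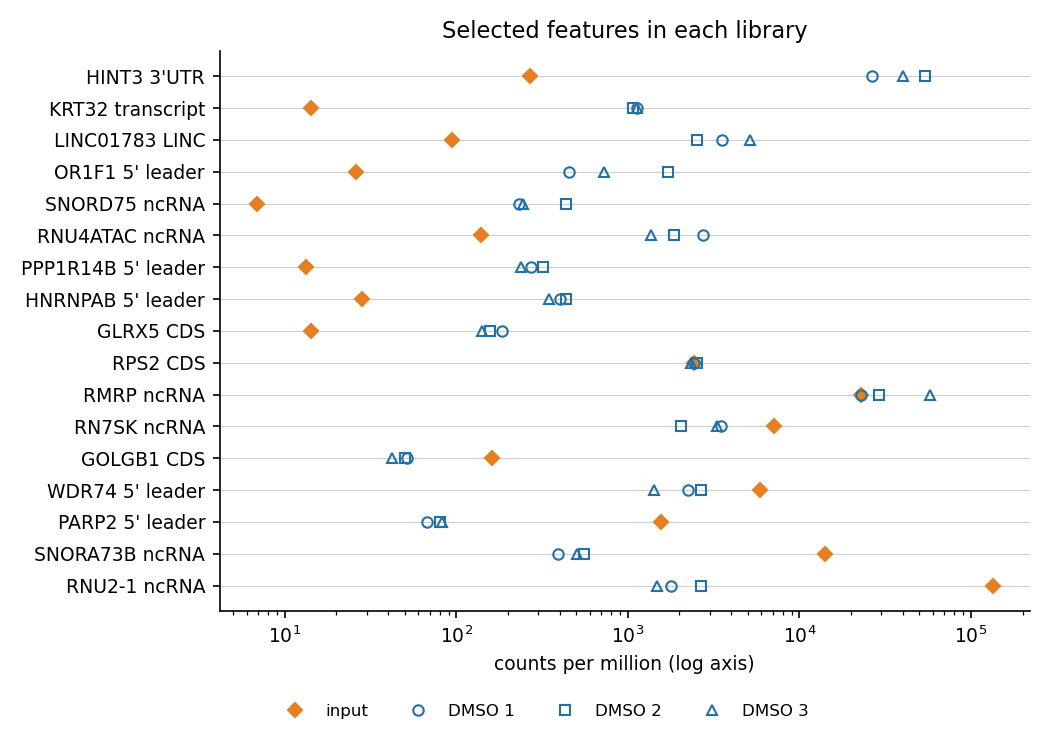
CPM (log axis) of 17 selected features in the input (diamonds) and in DMSO libraries 1, 2 and 3 (circles, squares and triangles). Features run from those high over input, such as HINT3, through RPS2 and RMRP, where input and DMSO overlap, to RNU2-1, which lies far below it.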

How the data were processed

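eCLIP libraries of HEK 293T cells were used as the authors deposited them: 1 table of raw counts per library, with a row for each symbol in each of 7 transcript classes. The submitters' processing notes name cutadapt and Bowtie 1.1 as tools, without a role or order. The genome build, annotation, counting rule, strand and treatment of PCR duplicates are not given in the sources used here, so the counts cannot be taken as independent molecules, and reads of near-identical copies, overlapping genes and antisense pairs cannot be told apart. A blank row (1 per file) was left out.

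CPM, shares and log2 ratios with a prior count of 2 were computed with Python 3.11.15, pandas 2.3.3, numpy 2.4.6 and scipy 1.17.1. A feature needed an average of DMSO mean and input of 20 CPM, and counted as above or below input at 2-fold or more in all 3 DMSO libraries. No test was run, because the input is 1 library. The ratios and counting steps were checked on simulated data. Intervals are exact at 95% and cover counting error only. TMM (edgeR 4.0.16) and DESeq2 1.42.0 size factors (R 4.3.3), other filters, prior counts and folds, and leaving out each library were tried. Lengths and GC content came from GENCODE release 29, transcription starts and small-RNA genes from RefSeq (GRCh38.p14), with a window of 500 bases. The rocaglate libraries were not used here.

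Members and gene lists were chosen with earlier results of these data known. Features were named where they were the most abundant, ranked highest or lowest on their least extreme library, belonged to the eIF4F list, or stood at the ends of another list. Of those with 1 to 3 input counts the ratio is given with its counting interval and not as a bound, which departs from the rule as first written.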

Additional observations from a re-analysis of the deposited data

How the results depend on the processing

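The leader share stayed 14.5 to 16.6 percentage points above input under all alternatives run. The median leader ratio of 1.98 was 1.45 with TMM, 1.57 with DESeq2 size factors and 1.42 with totals of the mRNA classes. It was 1.81 with a prior count of 5, 1.58 and 2.11 with filters of 5 and 50 CPM, 0.86 with no filter, 0.80 with the filter on the input, 2.27 with DMSO library 2 alone (the number of the input) and 1.41 for genes chosen by their CDS, an alternative added after seeing the data, as was taking out small-RNA features. CDS and 3'UTR medians changed sign with TMM (-0.48 and -0.42), DESeq2 (-0.38 and -0.31) and mRNA totals (-0.46 and -0.41), and the CDS median was -0.16 with the input filter. The leader-to-CDS difference of 2.02 was 1.83 with a prior count of 5, 1.68 with a filter of 5 CPM, 1.05 with none, 1.39 with the input filter and 2.25 with library 2 alone.

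Features above input (1566) numbered 3939, 435, 4799 and 321 with filters of 5, 50, none and input, 2747 with library 2 alone and 691 at 4-fold. Those below (142) numbered 555, 406 and 657 with TMM, DESeq2 and mRNA totals, 396, 90 and 1072 with filters of 5, 50 and none, 713 with library 2 alone, and 58 and 386 at 4-fold and 1.5-fold. Leaders above (1238) numbered 3131, 322, 3666 and 204 with filters of 5, 50, none and input and 634 at 4-fold. Leaving out each DMSO library gave leader medians of 1.96 to 2.13, CDS medians of -0.03 to 0.08, 3'UTR medians of 0.03 to 0.17, within-gene differences of 1.91 to 2.10, 1713 to 1919 features above, 1284 to 1413 leaders above and 196 to 253 features below, the most without library 2. Fewer libraries have to pass there by construction. Of 2251 alternative values of 189 named features, 458 moved by more than the spread between libraries and 0 changed sign where called. With the input filter 107 of the 189 had a value, and with a filter of 50 CPM 98. The cause of the other changes was not tested. No paired analysis was possible because the input shares only 1 number with the DMSO libraries. Depth limits the features with few input counts, whose ratios have wide counting intervals or, at 0 counts, only a bound.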

Other observations

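Lists outside the main comparison gave these values, to be read against the 67.2% of all leaders above input with library totals. Counts with TMM are to be read against 956 of 1854 leaders, and those with DESeq2 against 1015 of 1845. Nucleolar proteins of ribosome biogenesis had 6 of 7 leaders above input (median 2.01 ± 0.39; 2 of 5 with TMM and with DESeq2), with the methyltransferase FBL at 3.65 CPM in the input and 30.8, 47.5 and 32.9 CPM in DMSO (2.88 ± 0.32). DNA replication genes had 5 of 6 (3 of 6 with TMM and with DESeq2), among them POLA2, a subunit of the polymerase that primes synthesis (2.50 ± 0.77), while the CDS of RFC1, a clamp loader subunit, was at 39.2 against 19.6, 13.0 and 20.1 CPM (-1.11 ± 0.32). Aminoacyl-tRNA synthetases had 4 of 4 leaders (2 with TMM, 3 with DESeq2) and 0 of 31 CDS above input, where 5.57% of all CDS were. AARS had 142 against 78.4, 92.1 and 86.9 CPM in its CDS (-0.72 ± 0.12). Solute carriers had 26 of 38 leaders above input (1.98 ± 0.27; 17 of 36 with TMM), with SLC39A14, a zinc and iron importer, the highest (3.45 ± 0.47).

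Host transcripts of small nucleolar RNAs had 0 of 13 ncRNA features above and 0 below input, against 6.31% and 15.7% of all ncRNAs. Their median was 0.27 ± 0.21, a sign that turns with the scaling shifts, and among them were SNHG5 (1.21 ± 0.58) and SNHG10 (-0.04 ± 0.29). Of 62 antisense transcripts, 3 were above and 1 below, against 6.31% and 15.7% of all ncRNAs. With TMM, DESeq2 and mRNA totals 0 were above and 3, 2 and 5 below. With library totals VPS9D1-AS1 was the highest, with 67.5 CPM in the input and 309, 159 and 315 CPM in DMSO (1.86 ± 0.56), and SSTR5-AS1 the lowest (-1.80 ± 0.79). Strand is not given in the sources used here, so these cannot be told apart from their sense partners. Of 6 microRNA loci, MIR6723 was above (25.5 against 127, 97.7 and 122 CPM, 2.10 ± 0.20) and MIR3651 below (53.3 against 18.7, 8.38 and 6.36 CPM, -2.24 ± 0.71).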
